A study of Mus musculus with 12 samples.

Results

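The genes described here encode the BTB-Kelch adaptors, cullins and BTB-domain proteins of the kidney tubule. They were chosen by name, as every gene on the array whose name begins with Klhl, Kbtbd, Kctd, Cul or Btbd, or is Rbx1 or Rbx2, without Klhl3 and Cul3, and they numbered 77 of 27599 genes. The names are those printed on the array, some of them old, so that Cul9 (named Parc there) and Rbx2 (named Rnf7 there) fall outside. Expression was measured in sorted kidney tubules of 4 mice on 12 one-colour arrays, 3 arrays per mouse. A large-particle sorter (COPAS) separated a tubule suspension into EGFP+ tubules, which carry a green fluorescent protein and are distal convoluted tubules (DCT), a total fraction called ALL, and EGFP- tubules, which lack the fluorescence. Each fraction holds 2 males (mice 2 and 4) and 2 females (mice 1 and 3). Every level below is the log2 signal of a probe relative to the upper quartile of its array, so that 0 is the array's 75th percentile. Levels are compared between fractions and not between genes. The sources used here do not give the strain and age of the mice or the promoter that drove EGFP.

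Cullins are scaffolds of RING ubiquitin ligases. One end of a cullin holds the RING protein Rbx1 or Rnf7 (also called Rbx2), which recruits the ubiquitin-carrying enzyme, and the other end holds an adaptor that chooses the substrate. Cul3 uses proteins with a BTB domain as adaptors, among them the kelch-repeat proteins of the Klhl and Kbtbd families, many Kctd proteins and some Btbd proteins. In the DCT the Cul3 adaptor Klhl3 brings WNK kinases to degradation, and mutations of human KLHL3 or CUL3 cause familial hyperkalaemic hypertension, a disease of DCT salt transport.

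The 12 arrays had a 75th percentile of 922 to 2270 intensity units, and 53.9% to 65.6% of their probes were well above background by the scanner software's call. The EGFP+ label was checked against 7 DCT markers, all higher in EGFP+ than in EGFP- tubules, with Slc12a3, the thiazide-sensitive cotransporter, 331-fold higher (limma, adjusted p = 1.9e-09). Their summed linear signal, in multiples of the array's upper quartile, ran from 477 to 610 in EGFP+, from 83.6 to 118 in ALL and from 20.9 to 40.5 in EGFP- tubules. Markers of other cells went in several directions. All 10 proximal tubule markers, all 6 podocyte markers and all 7 endothelial markers were lower in EGFP+ than in EGFP- tubules. Of 6 thick limb markers 5 were higher in EGFP+ tubules and 1 was lower. Of 6 principal cell markers 1 was higher and 5 were lower, and of 6 intercalated cell markers 1 was higher, 2 were lower and 3 did not pass. In such bulk samples fewer cells of a type and less RNA per cell cannot be told apart.

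Of the 77 genes, 67 passed the filter for testing, a probe marked as well above background on 4 or more of the 12 arrays. The other 10 were Btbd16, Kbtbd5, Kbtbd10, Kctd11, Kctd14, Kctd16, Kctd19, Klhl4, Klhl10 and Klhl14, of which 6 were not well above background on any array and 4 were on 1 or 2 arrays. Kbtbd5 and Kbtbd10, now named Klhl40 and Klhl41, are adaptors of skeletal muscle. At the other end, 59 genes had a probe above background on all 12 arrays. The array uses older names for 6 of the genes, and Btbd4, Btbd12, Btbd14a and Btbd14b are now Zbtb46, Slx4, Nacc2 and Nacc1.

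The first comparison asked which of these genes differed between the EGFP+ and the EGFP- fraction. In EGFP+ tubules 28 of the 67 were higher and 11 were lower than in EGFP- tubules, and 28 did not pass the test (limma over 12 arrays, Benjamini-Hochberg adjusted p under 0.05). Of the 28, Kctd8 and Klhl31 passed the filter only through the EGFP+ arrays, so that they had to differ. The share past the threshold was 58.2%, and over all 17072 genes tested it was 58.2% as well. By direction the split was 41.8% higher and 16.4% lower among the 67 genes, against 32.3% and 25.9% among all genes. The median difference was 0.34 for the 67 genes and 0.11 for all genes tested. Large differences ran to both ends: 9 of the genes differed by at least 1 on the log2 scale upward (13.3% of all genes did) and 8 downward (19.4%). The 4 EGFP+ and the 4 EGFP- values did not overlap in 40 of the 67 genes, and in 55.8% of all genes. Each of the 28 was higher in 4 of 4 mice, each of the 11 was lower in 4 of 4, and all 39 kept their sign within each of the 3 array slides. The 39 were called on these same arrays, so this agreement is no separate evidence for them. On slide 2 the EGFP+ array was of mouse 3 and the EGFP- array of mouse 2.

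**Figure D1:**
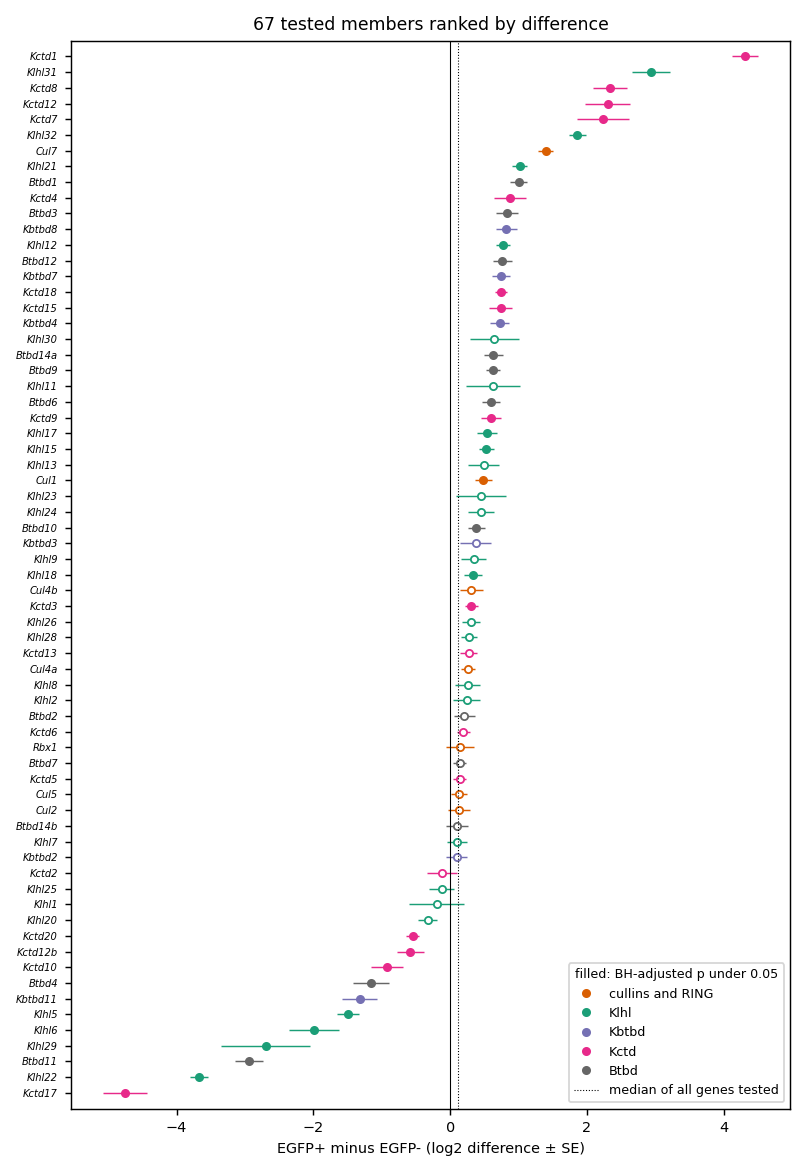
The 67 tested genes ranked by their EGFP+ minus EGFP- difference (log2, x axis, bars are ± SE, n = 4 mice per fraction). Filled points passed the adjusted p threshold of 0.05, colours give the gene family, and the dotted line is the median of all genes tested, 0.11. Kctd1 is at the top with 4.31 and Kctd17 at the bottom with -4.75.

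Of the 6 cullins other than Cul3 and the RING subunit Rbx1, 2 were higher in EGFP+ than in EGFP- tubules, 0 were lower and 5 did not pass. Over all genes tested 32.3% were higher and 25.9% lower. Cul7, which binds the F-box protein Fbxw8 and whose human gene is mutated in 3-M growth syndrome, stood at 3.49, 3.50, 3.72 and 3.91 in EGFP+ tubules of mice 1 to 4, at 2.45, 2.28, 2.36 and 2.43 in ALL, and at 2.30, 2.17, 2.26 and 2.32 in EGFP- tubules. All EGFP+ values lay above those of the other fractions. It was 2.63-fold higher in EGFP+ than in EGFP- tubules (log2 difference 1.39 ± 0.11 SE, adjusted p = 6.7e-07) and 2.42-fold higher than in ALL (adjusted p = 1.8e-06). Its probe lies at chr17:46127493-46127551 of the mm8 build. Because Cul7 is the scaffold with the largest difference, its start region is shown, the 250 bases before and 50 after the annotated start (RefSeq, GRCm38.p6, chr17:46650088-46650387, plus strand), with each GC box (GGGCGG on either strand) in capitals. There are 2.
Cul7: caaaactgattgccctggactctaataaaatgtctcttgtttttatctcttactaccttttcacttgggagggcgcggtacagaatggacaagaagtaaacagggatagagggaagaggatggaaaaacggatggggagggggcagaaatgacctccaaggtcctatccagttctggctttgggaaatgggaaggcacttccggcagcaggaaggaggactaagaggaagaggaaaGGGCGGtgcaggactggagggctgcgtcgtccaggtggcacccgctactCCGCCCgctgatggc

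Cul1, the scaffold of the SCF ligases that use F-box adaptors, had levels of 1.60, 1.74, 1.64 and 1.52 in EGFP+, 0.97, 1.39, 1.14 and 1.19 in ALL, and 1.12, 1.39, 0.90 and 1.15 in EGFP- tubules. The EGFP+ values again lay above the rest. The difference from EGFP- was 0.48 ± 0.13 (1.4-fold, adjusted p = 0.0064), and its other tested probes gave 0.46 and 0.45. The call was lost without mouse 3 (0.40, adjusted p = 0.0597) and with normexp background correction (0.36, adjusted p = 0.0735).

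The other 5 genes of this family did not pass against EGFP- tubules by their brightest probe. Among their dimmer probes, each fitted alone with limma, 1 of Cul4b (0.34, adjusted p = 0.021) and 1 of Rbx1 (0.35, adjusted p = 0.0495) passed. A dimmer Cul5 probe passed with the opposite sign and is described further below. The values that follow are those of the brightest probes. Cul4a and Cul4b, the paralogous scaffolds that work through Ddb1, differed by 0.26 ± 0.10 (adjusted p = 0.051) and by 0.31 ± 0.17 (adjusted p = 0.14). With the mouse as a block both passed, at adjusted p = 0.0351 for Cul4a and 0.0334 for Cul4b. Cul4a passed against ALL, at 0.33 (adjusted p = 0.019). That call was lost with normexp correction (0.31, adjusted p = 0.0712) and when dim probes were not filtered (0.33, adjusted p = 0.0563). It was also lost without mouse 1 (0.30, adjusted p = 0.0869) and without mouse 3 (0.28, adjusted p = 0.116). The Cul4a levels of 2.75, 2.69, 2.87 and 2.87 in EGFP+ lay above those of 2.44, 2.62, 2.41 and 2.69 in EGFP- tubules, touching at 2.69. Cul2, the scaffold for Vhl, differed by 0.12 (95% interval -0.23 to 0.47), Cul5, the scaffold for SOCS-box proteins, by 0.13 (-0.13 to 0.39), and Rbx1 by 0.14 (-0.30 to 0.58). The 3 fractions overlapped for each of these. Cul3 itself, outside the 77 genes, differed by 0.19 ± 0.20 (adjusted p = 0.44).

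**Figure D2:**
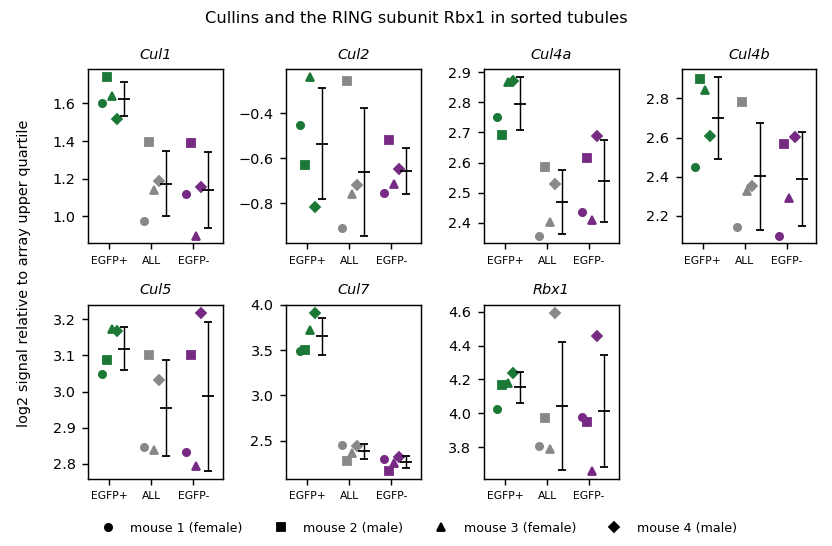
Levels of the 6 cullins and Rbx1 (log2 signal relative to the array's upper quartile, y axis) in EGFP+, ALL and EGFP- tubules, 1 point per mouse with mean ± SD beside them. Cul7 separates, with EGFP+ values of 3.49 to 3.91, while the fractions of Cul2, Cul5 and Rbx1 overlap.

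In the Kctd family, small BTB proteins without kelch repeats, 9 of 17 tested genes were higher in EGFP+ than in EGFP- tubules, 4 were lower and 4 did not pass. The share over all genes was 32.3% higher and 25.9% lower, and the 9 include Kctd8, which had to differ. Kctd1, which represses the transcriptional activity of AP-2 factors and has been linked with AP-2β to distal nephron differentiation in mice, had levels of 4.13, 4.00, 4.29 and 4.03 in EGFP+, 1.31, 1.32, 1.48 and 0.77 in ALL, and -0.08, 0.04, -0.07 and -0.67 in EGFP- tubules. The 3 fractions formed 3 separate steps with no overlap. It was 19.8-fold higher in EGFP+ than in EGFP- tubules (4.31 ± 0.19, adjusted p = 5.5e-09), and a second probe gave 4.15. Klhl3, for comparison, was 37.3-fold higher (adjusted p = 1.5e-08). Kctd15, a relative of Kctd1 that also inhibits AP-2, was 1.67-fold higher (0.74 ± 0.16, adjusted p = 0.0022), with levels of 3.11, 2.60, 3.01 and 2.75 in EGFP+ against 1.96, 2.12, 2.03 and 2.42 in EGFP- tubules.

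Kctd8, Kctd12 and Kctd16 encode auxiliary subunits of GABA-B receptors, which tune the receptor's G-protein signalling in neurons. Kctd12 had levels of 2.59, 1.72, 1.66 and 1.48 in EGFP+, 0.53, -0.02, -0.02 and -0.94 in ALL, and 0.06, -0.33, -0.60 and -0.90 in EGFP- tubules. Mouse 1 was highest in each fraction, and EGFP+ values lay above all others. The difference from EGFP- was 4.94-fold (2.30 ± 0.33, adjusted p = 8.6e-05), and a second probe gave 2.35. Kctd8 cleared the background on the 4 EGFP+ arrays, at -4.49, -4.71, -4.57 and -4.51, and on no ALL or EGFP- array. It entered the test only through the EGFP+ arrays, so a difference was built into its selection. The level was at least 1.69 times that in EGFP- tubules and at least 2.05 times that in ALL, given as a description with no test. These bounds set the EGFP+ mean against the lowest signal that counted as above background on each dim array. With normexp correction the difference from ALL was 0.47. Kctd16 was not tested. Kctd12b, a relative of Kctd12 on the X chromosome, was lower (-0.58 ± 0.19, adjusted p = 0.022). That call was lost without mouse 1 (-0.41), mouse 2 (-0.61) or mouse 3 (-0.54), with adjusted p of 0.101, 0.0886 and 0.113, and when its probes were averaged (-0.37, adjusted p = 0.312).

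The start regions of Kctd12 and Kctd8 are shown because these paralogs share a role, yet their start regions differ in base composition. They are RefSeq windows on GRCm38.p6, both on the minus strand, at chr14:102982588-102982887 for Kctd12 and at chr5:69341660-69341959 for Kctd8, with GC boxes in capitals. Kctd12 holds 7 GC boxes and is 78% G or C, and Kctd8 holds 0 and is 57.7% G or C.
Kctd12: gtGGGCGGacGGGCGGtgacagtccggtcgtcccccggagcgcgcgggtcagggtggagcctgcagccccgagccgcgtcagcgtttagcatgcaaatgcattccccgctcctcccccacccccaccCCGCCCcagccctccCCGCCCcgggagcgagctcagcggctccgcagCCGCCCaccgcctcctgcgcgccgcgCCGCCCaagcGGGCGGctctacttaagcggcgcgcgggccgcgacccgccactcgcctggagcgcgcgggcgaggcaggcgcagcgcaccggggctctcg
Kctd8: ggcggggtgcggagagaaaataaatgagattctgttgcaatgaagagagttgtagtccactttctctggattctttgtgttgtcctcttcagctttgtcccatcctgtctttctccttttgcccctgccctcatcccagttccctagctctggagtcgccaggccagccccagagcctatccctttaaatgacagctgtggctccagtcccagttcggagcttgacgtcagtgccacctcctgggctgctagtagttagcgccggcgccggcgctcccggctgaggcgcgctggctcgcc

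Kctd7, whose human gene is mutated in a progressive myoclonic epilepsy, had levels of -1.40, -1.74, -1.15 and -1.52 in EGFP+, -2.98, -3.57, -2.83 and -4.15 in ALL, and -3.12, -4.11, -2.96 and -4.57 in EGFP- tubules. In each fraction the 2 males read below the 2 females, and the fractions kept apart from EGFP+. The difference was 4.71-fold (2.23 ± 0.38, adjusted p = 0.0003).

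Kctd17 fell furthest of the 67 genes. The protein directs a Cul3 ligase to trichoplein, a brake on the formation of primary cilia. Its levels were -3.36, -2.14, -2.96 and -2.69 in EGFP+, 1.35, 2.23, 1.68 and 2.52 in ALL, and 1.51, 2.17, 1.72 and 2.45 in EGFP- tubules. It was 26.9-fold lower in EGFP+ than in EGFP- tubules (-4.75 ± 0.32, adjusted p = 1.4e-07) and 26.5-fold lower than in ALL (adjusted p = 2.1e-07), and ALL and EGFP- overlapped. Its closest relatives did not pass: Kctd2 differed by -0.12 (95% interval -0.60 to 0.36) and Kctd5 by 0.14 (-0.08 to 0.36). Kctd10, a Cul3 adaptor, was lower by 0.93 on the log2 scale (-0.93 ± 0.23, adjusted p = 0.0046), and its relative Kctd13 differed by 0.27 (adjusted p = 0.08). The remaining calls in the family were Kctd4 at 0.87, Kctd18 at 0.74, Kctd9 at 0.59 and Kctd3 at 0.31, all higher, and Kctd20 at -0.55, lower. Kctd4 rests on 1 probe on the minus strand, and its other 4 probes, all on the plus strand, were above background on 0 or 1 of the 12 arrays. Kctd3 lost its call with normexp correction (0.23), when its probes were averaged (0.30), without mouse 3 (0.27) and without mouse 4 (0.27), at adjusted p of 0.0601, 0.0651, 0.0918 and 0.0602.

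**Figure D3:**
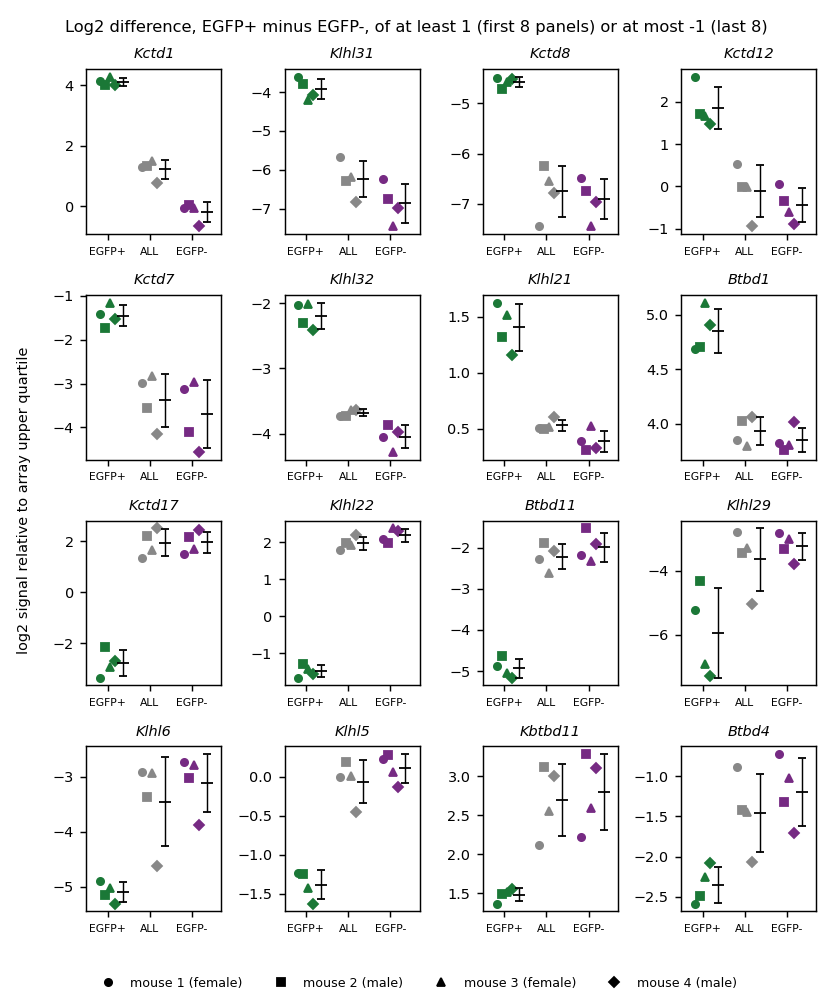
Levels (log2 signal relative to the array's upper quartile, y axis) of 16 genes in EGFP+, ALL and EGFP- tubules, 1 symbol per mouse with mean ± SD beside them. The first 8 panels, from Kctd1 to Btbd1, have EGFP+ values above both other fractions, and in the last 8, from Kctd17 to Btbd4, the EGFP+ values lie below the EGFP- values. The ALL and EGFP- values of Kctd8 and the EGFP- values of Klhl31 were not well above background.

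Among the Klhl genes, whose proteins join a BTB domain to kelch repeats that grip the substrate, 7 of 25 tested were higher in EGFP+ than in EGFP- tubules. Of the others 4 were lower and 14 did not pass. The share over all genes was 32.3% higher and 25.9% lower, and the 7 include Klhl31, which had to differ. Klhl31, best known from skeletal and cardiac muscle, cleared the background on 4 EGFP+ arrays, at -3.61, -3.80, -4.21 and -4.07, on 1 ALL array and on no EGFP- array. Like Kctd8 it entered the test only through the EGFP+ arrays. The level was at least 2.64 times that in EGFP- tubules, given as a description with no test. Against ALL the difference was 2.32 and with normexp correction 0.63. Of 7 stroma and muscle markers 5 were lower in EGFP+ than in EGFP- tubules and 2 did not pass, with a summed linear signal of 3.30 to 5.35 in EGFP+ against 12.1 to 23.3 in EGFP- tubules, and their part in the Klhl31 levels was not tested.

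Klhl32 had levels of -2.03, -2.30, -2.01 and -2.42 in EGFP+, -3.73, -3.73, -3.63 and -3.63 in ALL, and -4.05, -3.87, -4.29 and -3.98 in EGFP- tubules, 3 ranges without overlap. It was 3.63-fold higher than in EGFP- (1.86 ± 0.12, adjusted p = 1.4e-07). Against ALL the difference was 1.49 (adjusted p = 1.2e-06), and normexp correction ended that call (0.77, adjusted p = 0.0535). Klhl21, the adaptor that brings Aurora B kinase to a Cul3 ligase in mitosis, had levels of 1.63, 1.32, 1.51 and 1.16 in EGFP+, 0.51, 0.50, 0.51 and 0.61 in ALL, and 0.39, 0.31, 0.52 and 0.33 in EGFP- tubules. It was 2.02-fold higher than in EGFP- (adjusted p = 1.1e-05). Klhl9 and Klhl13, which form another Cul3 adaptor for Aurora B, did not pass, at 0.34 (adjusted p = 0.13) and 0.49 (adjusted p = 0.088). The smaller calls were Klhl12, the adaptor for the COPII coat protein Sec31, at 0.77, Klhl17 at 0.54, Klhl15, which targets a regulatory subunit of the phosphatase PP2A, at 0.53, and Klhl18 at 0.34. Klhl17 lost its call with normexp correction (0.40, adjusted p = 0.0600). Klhl18 lost its call without any one of the mice (0.34, 0.38, 0.29 and 0.34 without mice 1 to 4), at adjusted p from 0.0543 to 0.144.

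Klhl2, the closest relative of Klhl3 and likewise an adaptor for WNK kinases, did not separate the fractions. Its levels were 1.06, 1.13, 1.27 and 0.95 in EGFP+, 0.49, 1.15, 0.51 and 0.90 in ALL, and 0.57, 1.11, 0.50 and 1.25 in EGFP- tubules. The EGFP+ minus EGFP- difference was 0.24 ± 0.20 (95% interval -0.20 to 0.68, adjusted p = 0.32). In ALL and EGFP- tubules the 2 males read above the 2 females.

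Klhl22, an adaptor for the mitotic kinase PLK1 and for DEPDC5, a brake on mTORC1, was 12.7-fold lower in EGFP+ than in EGFP- tubules (-3.67 ± 0.13, adjusted p = 2.1e-09). Its levels were -1.67, -1.29, -1.43 and -1.56 in EGFP+, 1.79, 1.97, 1.91 and 2.19 in ALL, and 2.08, 1.98, 2.37 and 2.29 in EGFP- tubules. No EGFP+ value came near the other fractions. The start region of this most strongly lowered kelch gene (RefSeq, GRCm38.p6, chr16:17759391-17759690, plus strand, the downstream one of 2 annotated starts) holds 3 GC boxes, of which the first pair share a base.
Klhl22: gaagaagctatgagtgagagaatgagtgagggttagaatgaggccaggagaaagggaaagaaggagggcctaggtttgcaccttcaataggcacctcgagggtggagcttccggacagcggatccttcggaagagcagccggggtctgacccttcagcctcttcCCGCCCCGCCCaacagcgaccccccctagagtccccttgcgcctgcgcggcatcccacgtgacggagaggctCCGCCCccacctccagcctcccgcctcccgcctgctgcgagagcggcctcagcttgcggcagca

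Klhl5 was 2.81-fold lower, with levels of -1.23, -1.24, -1.43 and -1.62 in EGFP+, 0.00, 0.20, 0.01 and -0.45 in ALL, and 0.23, 0.28, 0.06 and -0.13 in EGFP- tubules (-1.49 ± 0.16, adjusted p = 6.6e-06). Klhl6, an adaptor of B lymphocytes, was 3.97-fold lower, with levels of -4.90, -5.16, -5.02 and -5.31 in EGFP+, -2.91, -3.37, -2.93 and -4.62 in ALL, and -2.74, -3.03, -2.79 and -3.87 in EGFP- tubules (-1.99 ± 0.36, adjusted p = 0.00057). Klhl29 was 6.5-fold lower, with levels of -5.23, -4.31, -6.93 and -7.29 in EGFP+, -2.81, -3.44, -3.30 and -5.05 in ALL, and -2.81, -3.32, -3.02 and -3.80 in EGFP- tubules (-2.70 ± 0.65, adjusted p = 0.0035). The EGFP+ values of all 3 genes lay below their EGFP- values, but those of Klhl29 overlapped ALL, and in EGFP+ tubules Klhl6 and Klhl29 each cleared the background on just 2 of 4 arrays. With normexp correction the calls of both were lost, at -0.20 (adjusted p = 0.669) for Klhl6 and -0.14 (adjusted p = 0.789) for Klhl29. Of 6 leukocyte markers tested 4 were lower in EGFP+ tubules, with a summed linear signal of 0.406 to 0.686 in EGFP+, 4.08 to 11.6 in ALL and 5.24 to 14.1 in EGFP- tubules, and their part in the Klhl6 result was not tested.

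The Kbtbd genes, kelch proteins of a second naming series, gave 3 higher, 1 lower and 2 not past among 6 tested. Over all genes tested 32.3% were higher and 25.9% lower. Kbtbd11 was 2.5-fold lower (-1.32 ± 0.26, adjusted p = 0.00086), with levels of 1.37, 1.49, 1.51 and 1.55 in EGFP+, 2.11, 3.11, 2.55 and 3.01 in ALL, and 2.22, 3.29, 2.59 and 3.11 in EGFP- tubules. The 4 EGFP+ values lay close together, while in the other fractions the 2 males read above the 2 females. Kbtbd8 at 0.82, Kbtbd7 at 0.74 and Kbtbd4 at 0.72 were higher in EGFP+ tubules.

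In the Btbd group, which collects BTB proteins of several kinds, 7 of 12 tested were higher, 2 were lower and 3 did not pass. Over all genes tested 32.3% were higher and 25.9% lower. Btbd1, which binds DNA topoisomerase I, was 2-fold higher (log2 difference 1.0 ± 0.12, adjusted p = 2.4e-05), with levels of 4.68, 4.70, 5.11 and 4.91 in EGFP+, 3.85, 4.03, 3.79 and 4.06 in ALL, and 3.82, 3.76, 3.81 and 4.02 in EGFP- tubules. Its paralog Btbd2 differed by 0.21 (95% interval -0.12 to 0.53). The other higher genes were Btbd3 at 0.83, Btbd12, the DNA repair scaffold Slx4, at 0.76, Btbd14a at 0.63, Btbd9 at 0.62, Btbd6 at 0.60 and Btbd10 at 0.38. Btbd10 lost its call without mouse 1 (0.34, adjusted p = 0.118), without mouse 4 (0.40, adjusted p = 0.0593) and when dim probes were not filtered (0.38, adjusted p = 0.0503).

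Btbd11 was 7.68-fold lower in EGFP+ than in EGFP- tubules (-2.94 ± 0.20, adjusted p = 1.9e-07), with levels of -4.88, -4.63, -5.05 and -5.16 in EGFP+, -2.29, -1.90, -2.62 and -2.09 in ALL, and -2.17, -1.53, -2.33 and -1.91 in EGFP- tubules. In EGFP+ tubules it cleared the background on 2 of 4 arrays, and normexp correction brought the difference to -1.11 (adjusted p = 0.0231). Btbd4, the transcription factor Zbtb46 of classical dendritic cells and endothelium, was 2.23-fold lower (-1.16 ± 0.26, adjusted p = 0.0023), with levels of -2.59, -2.49, -2.26 and -2.08 in EGFP+, -0.88, -1.43, -1.44 and -2.07 in ALL, and -0.72, -1.33, -1.02 and -1.70 in EGFP- tubules. Mouse 4 was the lowest of the ALL and EGFP- arrays for this gene. Its call was lost with normexp correction (-0.62, adjusted p = 0.0858) and when its 3 probes were averaged (-0.70, adjusted p = 0.0803). The 7 endothelial markers summed to 3.98 to 5.24 in EGFP+, 41.9 to 72.2 in ALL and 52.3 to 85.5 in EGFP- tubules, and their part in the Btbd4 result was not tested.

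Proximal tubule markers were low in EGFP+ tubules. Over the 5 proximal markers measured on every array, the summed linear signal was 1.79 to 4.37 in EGFP+, 76.6 to 98.3 in ALL and 80.6 to 110 in EGFP- tubules. Its part in the lower levels of Kctd17, Klhl22, Klhl5 and Kbtbd11 was not tested. Of 6 thick limb markers 5 were higher in EGFP+ than in EGFP- tubules, among them Slc12a1 by 0.75 and Umod by 1.93, and 1 was lower. The part of thick limb cells in the levels of the higher genes was not tested. The EGFP+ array of mouse 2 was left out once as a check. The counts against EGFP- were then 29 higher and 12 lower, and 5168 and 4190 over all genes tested.

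Against the total fraction the picture was close to that against EGFP- tubules, and both comparisons share the EGFP+ arrays. In EGFP+ tubules 30 of the 67 genes were higher than in ALL and 11 were lower, which is 61.2% past the threshold, against 55.3% of all genes (30.3% higher and 24.9% lower). The 4 EGFP+ and 4 ALL values did not overlap in 39 of them, and in 52.5% of all genes. The 5 largest fitted rises were those of Kctd1 at 2.89 (7.43-fold), Klhl31 at 2.32, Kctd8 at 2.18, Kctd12 at 1.98 (3.93-fold) and Kctd7 at 1.93 (3.81-fold). The ALL values of Klhl31 (3 of 4 arrays) and Kctd8 (4 of 4) were not well above background, so their places in this order are uncertain, and with normexp correction both missed the threshold (0.63 and 0.47, adjusted p = 0.335 and 0.547). The 5 largest falls were Kctd17 at -4.73, Klhl22 at -3.45 (10.9-fold), Btbd11 at -2.71 (6.53-fold), Klhl29 at -2.29 and Klhl6 at -1.64 (3.12-fold). Klhl6 and Klhl29 again lost their calls with normexp correction (-0.46 and -0.43, adjusted p = 0.417 and 0.485). Cul4a, Klhl9, Klhl20 and Klhl28 passed against ALL and not against EGFP- tubules, and Btbd10 and Kctd12b the reverse. The difference between those 2 contrasts is the ALL against EGFP- difference, which did not pass for any of these 6 genes (adjusted p = 1).

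ALL and EGFP- tubules differed in few of these genes. Of the 67, 1 (Kctd1) was higher in ALL than in EGFP- tubules, and 0 were lower (limma). Over all genes 1.39% were higher and 0.00586% lower. An unadjusted p under 0.05 was found for 3 of the 67, and for 707 of all 17072 genes. Kctd1 was 1.42 ± 0.19 higher in ALL on the log2 scale (adjusted p = 0.0018), with 1.31, 1.32, 1.48 and 0.77 in ALL against -0.08, 0.04, -0.07 and -0.67 in EGFP- tubules. For 2 genes, Kctd1 and Klhl32, the 4 ALL and the 4 EGFP- values did not overlap, which held for 3.01% of all genes. The Klhl32 difference was 0.37 (adjusted p = 0.46).

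Males and females were compared on each mouse's mean over its 3 fractions. Of the 67 genes 0 differed (limma, 2 males against 2 females), and 1.27% of all genes passed. An unadjusted p under 0.05 was found for 11 of the 67, and for 3536 of all 17072 genes. Kctd7, lower in the 2 males by 0.87 on the log2 scale (-0.87 ± 0.16), and Kctd17, higher in them by 0.77 ± 0.15, were 2 of the larger differences, at adjusted p = 0.11 and 0.12. They are named after their values were seen. The EGFP+ minus EGFP- differences of the 2 males were also tested against those of the 2 females. For this, 0 of the 67 genes and 0% of all genes passed. An unadjusted p under 0.05 was found for 7 of the 67, and for 2056 of all 17072 genes.

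Genes that work beside these adaptors were read from 3 lists. The first, called the neddylation list, covers the attachment of the small protein NEDD8 that switches cullins on, and the COP9 complex that removes it. It also holds Cand1, Cand2, Cacul1, Glmn, Cdc34 and Ube2r2, which belong to neither group. Of its 26 genes, 11 were higher in EGFP+ than in EGFP- tubules, 2 were lower and 13 did not pass (median 0.20, all genes 0.11). Cand2 and Glmn were among the higher genes and Cacul1 among the lower. The share past the threshold was 50%, against 58.2% of all genes. Dcun1d1, which helps load NEDD8 onto cullins, was 2.17-fold higher (1.12 ± 0.14, adjusted p = 2.2e-05), at 2.51, 2.77, 2.85 and 2.75 in EGFP+ against 1.43, 1.70, 1.39 and 1.89 in EGFP- tubules. Its relative Dcun1d3 was 2.11-fold lower (adjusted p = 0.00027). The NEDD8-activating enzyme subunits Uba3 and Nae1 were higher by 0.63 and 0.40, and the NEDD8-conjugating enzyme Ube2m by 0.51. Without mouse 3, 7 genes of this list passed in place of 13. Over all genes tested 4603 were then higher and 4046 lower, in place of 5518 and 4414.

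Of 24 adaptors and receptors of other cullins, 13 were higher, 1 was lower and 10 did not pass (median 0.48). Past the threshold were 58.3%, near the 58.2% of all genes. Fbxo32, the F-box protein atrogin-1 of muscle wasting, was 6.4-fold higher (2.68 ± 0.14, adjusted p = 2e-08), and Socs2, which with Cul5 restrains growth hormone signalling, was 4.67-fold higher (2.22 ± 0.35, adjusted p = 0.00018). Ddb2, a DNA damage receptor of the Cul4 ligases, was 2.12-fold higher, and Fbxl5, an iron sensor, was lower by 0.22 on the log2 scale (-0.22 ± 0.08, adjusted p = 0.036). Beside the cullins of the 77 genes, Cul9 and the second RING subunit Rnf7 were higher, by 0.81 (adjusted p = 4.4e-05) and 0.74 (adjusted p = 0.00021).

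Of 19 BTB or kelch genes with other names, 4 were higher, 5 were lower and 10 did not pass (median 0.01), so that 47.4% passed, against 58.2% of all genes. These calls ran in both directions. Rhobtb2 was 3.38-fold higher (1.76 ± 0.12, adjusted p = 1.9e-07) and Rhobtb3 2.48-fold higher (adjusted p = 2.3e-05), while Rhobtb1 was 20-fold lower (-4.32 ± 0.18, adjusted p = 4.6e-09), at -0.44, 0.14, -0.06 and -0.38 in EGFP+ against 3.88, 4.23, 4.42 and 4.02 in EGFP- tubules. Keap1, the Cul3 adaptor for the stress factor Nrf2, differed by 0.16 (adjusted p = 0.45).

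**Figure D4:**
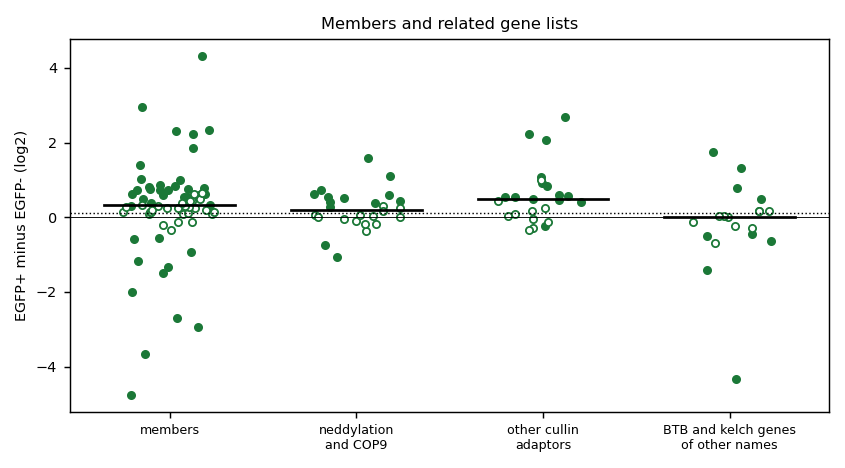
EGFP+ minus EGFP- differences (log2, y axis) of the 67 tested genes and of 3 related lists, 1 point per gene, placed sideways at random. Filled points passed the adjusted p threshold of 0.05, black bars are medians (0.34, 0.20, 0.48 and 0.01 from left to right), and the dotted line is the median of all genes, 0.11.

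RefSeq start regions of 300 bases were found for 60 of the 77 genes, 85 windows in all. Windows of the same gene were counted separately, and some of them overlap, as for Klhl22. The GC box was present in 59 of the 85 windows, and in 35.7% of 32851 windows of all genes, tested here or not. By call in EGFP+ against EGFP- tubules it was present in 24 of 32 windows of higher genes and 8 of 13 of lower genes. For genes that did not pass it was present in 26 of 33, and for genes not tested in 1 of 7. The motif GCCNNNGGC, the core bound by AP-2 factors, was present in 9 of 32 windows of higher genes, 3 of 13 of lower genes and 10 of 33 of genes that did not pass, against 16.6% of all windows. A TATA box (TATAAA) was present in 7 of the 85 windows and in 13.6% of all windows, and a CCAAT box (CCAAT) in 22 of the 85 and in 37.4%. Both strands were searched for each motif, AP-2 and GC box matches may overlap, and a match describes the sequence only. The windows of all genes were not matched to the 85 in base composition or expression.

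More than 1 probe was tested for 31 of the genes, and in 28 of these all probes had the same sign. In the other 3 a dimmer probe passed the threshold with the opposite sign of the brightest. The 4 probes of Cul5 on the minus strand gave 0.13, 0.05, 0.02 and 0.52 and did not pass, while the fifth, on the plus strand at chr9:53443663-53443722 (mm8), was lower in EGFP+ tubules (-0.63 ± 0.24, adjusted p = 0.0448). For Kbtbd3 the brightest probe gave 0.37 (adjusted p = 0.174) and the other -0.62 (adjusted p = 0.0012). For Klhl25 they gave -0.13 (adjusted p = 0.592) and 0.64 (adjusted p = 0.0302). The first 30 of the 60 bases of the brightest Cul5 probe (chr9:53377205-53377264, minus strand) and of the plus-strand probe are given, since the plus-strand probe lies on the strand opposite to the RefSeq start of Cul5 and to its other 4 probes.
Cul5 brightest probe: tatgtgtggtctggagttcctaaggtgtag
Cul5 plus-strand probe: atggggttcaaattggctatgtaacaaata

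**Figure D5:**
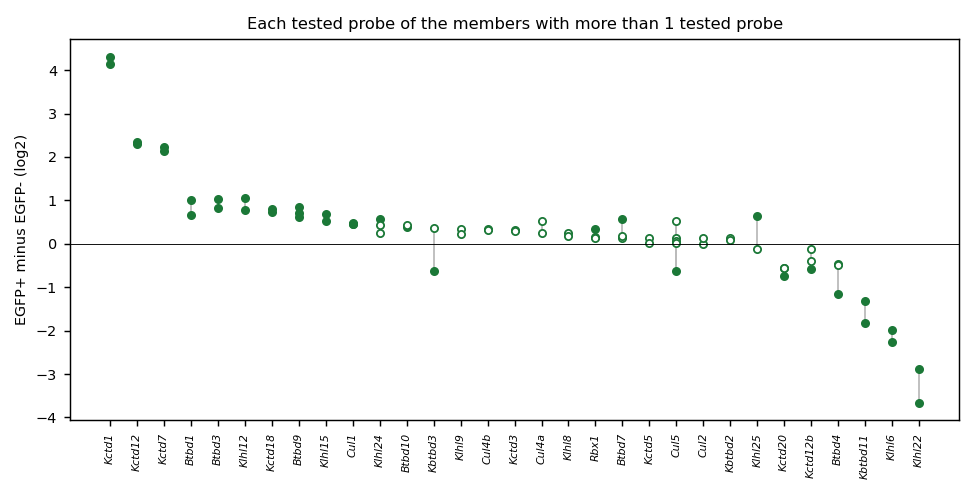
EGFP+ minus EGFP- differences (log2, y axis) of each tested probe, for the 31 genes with more than 1 tested probe (x axis, in the order of the brightest probe's difference). Filled points passed the adjusted p threshold of 0.05. Kctd1 and Kctd12 have 2 probes of the same sign, and Cul5, Kbtbd3 and Klhl25 have probes on both sides of 0.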

How the data were processed

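Total RNA of sorted renal tubules was labelled with Cy3 after linear amplification, per the labels' protocols. The Agilent arrays (design 014868, per the file headers) were read with Feature Extraction 9.5.3.1, and probe positions are those of mm8. The deposited values used are processed signals, background-corrected intensities on a linear scale, with raw mean and background intensities for an alternative. A further deposited table of values was not used.

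For each array the log2 processed signal was taken minus its 75th percentile over 41174 non-control probes, with outlier spots left out and spots of 1 probe averaged. A probe was tested if 4 or more of the 12 arrays marked it as well above background, and the one with the highest mean stood for its gene. Differences were tested with limma 3.58.1 (with R 4.3.3, statmod 1.5.0 and the data.table package, version 1.17.8), with one coefficient per fraction over 12 arrays and Benjamini-Hochberg adjustment over 17072 genes, threshold 0.05. The code was tested on simulated data. Errors with a difference are SE. Fold bounds apply where the dimmer fraction had no array with a probe of the gene above background. Sex was tested on 4 mouse means. Of the probes 24375 were named by accession, 6301 by current symbol, 2426 by an older symbol, and 8072 kept the name in the file.

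Same-numbered samples are fractions of 1 mouse, and their deviations from the fraction means correlated at 0.23 to 0.82 over 12 pairs, so the mouse was a block in an alternative fit. The 3 slides held 4 arrays each and were a further block. Other alternatives were normexp background correction (offset 50), quantile normalization, median centring, other filters, the mean of a gene's probes, 2 fractions alone, and leaving out each mouse. Precision is limited by the number of arrays. The genes and lists were chosen with earlier results of these data known. Named in full are the cullins and Rbx1, genes past the threshold with a log2 difference of at least 1 against EGFP-, the 5 largest each way in the other comparisons, Klhl2 and Kctd1.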

Additional observations from a re-analysis of the deposited data

Results flagged for a closer look

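Among 72 sets of 4 arrays (the named genes in 3 fractions), 2 held a value far from the other 3 by Dixon's test at the 95% level. Chance marks about 1 set in 20. Kctd1 read -0.67 in EGFP- tubules of mouse 4, and the nearest other mouse read -0.08 (ratio 0.835). Klhl21 read 0.61 in ALL of mouse 4, and the nearest other mouse read 0.51 (ratio 0.882).

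The EGFP+ minus EGFP- differences of the scaffolds Cul2 and Cul5, neither of which passed the test, had opposite signs in the sexes. For Cul2 the mean difference was -0.14 in the 2 males and 0.39 in the 2 females, so that males minus females was -0.53. For Cul5 it was -0.03 in the males and 0.30 in the females, so that males minus females was -0.33. Every male lay on the other side of 0 from every female. Both genes were flagged because of these opposite signs, and the share of all genes with such a split is not given here. With 2 males and 2 females such a split can also arise by chance. In the limma test of this dependence on sex the adjusted p was 0.43 for Cul2 and 0.54 for Cul5.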

How the results depend on the processing

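The 39 calls for EGFP+ against EGFP- tubules had the same sign under every alternative that gave them a value. With the mouse as a replicate block 36 genes were higher and 12 lower, and all 39 calls remained. The block gave 37 higher and 12 lower against ALL, and 14, 16 and 10 calls in the neddylation, other-adaptor and BTB or kelch lists. Median centring moved the median of all genes from 0.11 to 0.26 and that of the tested genes from 0.34 to 0.49, with 37 higher and 11 lower. Quantile normalization gave 32 and 11, the slide as a block 34 and 11, no filter 27 and 11, the stricter filter 27 and 9, the mean of a gene's probes 30 and 9, and 2 fractions alone 28 and 12. Normexp correction gave 26 and 8, with 32 of the 39 calls among them, and against ALL it left 19 higher and 7 lower, where 30 and 11 passed before, and the cause was not tested. Between the sexes 0 genes became 3 with normexp (Btbd11 0.57, Klhl1 0.52 and Kctd8 0.47, higher in males) and 1 with the stricter filter (Kctd7, -0.87), which tests fewer genes. Leaving out each mouse gave 25 to 27 higher and 10 to 11 lower, and 7 to 13 calls in the neddylation list (13 with all mice). Over all genes tested the main fit gave 5518 higher and 4414 lower against EGFP-. The mouse block gave 6240 and 4922, median centring 6319 and 3763, quantile normalization 6069 and 4344, and the slide block 5687 and 4470. Normexp correction gave 4834 and 2986, the mean of probes 5673 and 4395, and 2 fractions alone 5446 and 4447. No filter gave 5180 and 4243 of 27599, and the stricter filter 4779 and 2963 of 13314. Without 1 mouse, 4603 to 5328 were higher and 3859 to 4188 lower. Genes near the arrays' background, such as Klhl29, Klhl6, Kctd8 and Klhl31, have the least certain differences.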

Other observations

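Kctd16, which was not tested, read -0.83 in ALL of mouse 1 and between -7.87 and -6.60 on the other 11 arrays by the same probe. Its 2 other probes read -7.87 and -7.97 on that array.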
